A study of Mus musculus with 24 samples.

Results

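Inflammasomes are cytosolic protein assemblies that turn the detection of microbial or danger signals into the cleavage of IL-1β and IL-18 and into pyroptosis. The inflammasome genes described here were the 9 rows of the expression files with the gene symbols Nlrp3, Aim2, Nlrc4, Pycard, Casp1, Casp4, Gsdmd, Il1b and Il18, of 18063 genes listed for M1 and 17786 listed for M2 macrophages. All 9 were listed in all 24 libraries, and all 9 passed the filter on low values in both stimuli.

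The libraries were RNA-seq of mouse bone marrow-derived macrophages (BMDMs), 3 in each of 8 groups. WT mice and mice lacking the dopamine receptor DRD5, which the study made by CRISPR-Cas9, were C57BL/6 and 10 weeks old. M1 polarization used LPS at 100 ng/ml together with IFN-γ at 50 ng/ml, M2 polarization used IL-4 plus IL-13, each at 10 ng/ml, and both stimuli were left on the cells for 12 h. Within each stimulus, BMDMs of either genotype were left untreated or received dopamine (DA), to ask whether DA changes the polarized macrophage and whether that needs DRD5. All groups carried a polarizing stimulus, so no group of resting macrophages was analysed. The study's methods describe flushed bone marrow grown with L929-conditioned medium, and the labels give bone as the tissue, although one label protocol names colons.

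In the canonical pathway a sensor such as NLRP3, AIM2 or NLRC4 recruits the adaptor ASC, encoded by Pycard, or binds caspase-1 itself, and caspase-1 then cleaves the IL-1β and IL-18 precursors and gasdermin D. In the noncanonical pathway murine caspase-11, the product of Casp4, binds cytosolic LPS and cleaves gasdermin D directly. In macrophages, Toll-like receptor signalling through NF-κB first raises the transcripts of Nlrp3 and Il1b, a step called priming.

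The 8 macrophage markers examined (such as Adgre1, Csf1r and Cd68) were listed in every library, with summed levels between 7260 and 8240 FPKM (fragments mapped per unit of transcript length and of library size) in M1 and between 8350 and 11300 FPKM in M2. The M1 marker Nos2, encoding inducible nitric oxide synthase, averaged between 1708 and 1963 FPKM in the M1 groups and at most 0.327 FPKM in the M2 groups. Drd5 was not listed in the M1 files and was at 0 FPKM in 10 of the 12 M2 libraries, so the deletion could not be checked from its level. In M1, all 6 WT libraries held heart, lung and some neutrophil transcripts that were at 0 or lower in the DRD5-/- libraries. 9 genes (Csrp3, Mb, Myh6, Myl2, Myl3, Myoz2, Retnlg, Scgb1a1 and Sftpc), chosen after their values were seen, were over 0.2 FPKM in all 6 WT libraries (0.32 to 5.42 FPKM) and at 0 in all 6 DRD5-/- libraries, against 0 genes in the reverse direction and 0 in M2. All 11 neutrophil markers were listed in M1. In untreated libraries they summed to 131 to 144 FPKM in WT and 105 to 111 FPKM in DRD5-/-. With DA the sums were 163 to 185 FPKM in WT and 109 to 113 FPKM in DRD5-/-. Means in untreated WT and DRD5-/- libraries were 13.6 and 0.54 FPKM for S100a9 and 8.503 and 0.1 FPKM for Ngp. For Ltf they were 2.233 and 0.03 FPKM, and for Camp 2.563 and 0.26 FPKM. Csf3r, the largest member, went the other way (69.4 and 78.28 FPKM), as did Mpo (0 and 0.02667 FPKM). Elane was at 0 in all 12 M1 libraries. This difference ran with genotype in M1, and its part in the M1 genotype results was not tested.

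The genes lie on 7 chromosomes of the mouse genome (GRCm38, GENCODE annotation). Nlrp3 (gene ID 216799) spans chr11:59541568-59566956, Aim2 (383619) chr1:173350879-173466040 and Nlrc4 (268973) chr17:74425438-74459142. Pycard (66824) spans chr7:127989708-127993867, Gsdmd (69146) chr15:75862327-75867408 and Il1b (16176) chr2:129364570-129371139. Chromosome 9 carries Casp1 (12362; chr9:5298517-5307265), Casp4 (12363; chr9:5308828-5336783) and, farther along, Il18 (16173; chr9:50554827-50581840). Casp1 and Casp4 are paralogs on the same strand with 1562 bases between them, so reads from their similar stretches may be divided between the rows. Il1b is overlapped by the antisense gene Il1bos, Il18 by Bco2 and Tex12, Aim2 by Cadm3 and Pycard by Gm45205, all on the opposite strand, and without a stated strand setting reads of such partners cannot be told apart. Nlrc4 is overlapped by the processed pseudogene CT033749.1 on its own strand. Cadm3 reached at most 0.27 FPKM and Bco2 at most 2.4 FPKM in any library.

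Per unit of transcript length, Il1b was the most abundant of the 9 transcripts in untreated M1 WT BMDMs (329.2 ± 5.03 FPKM, SD, n = 3), ahead of Casp1 (276.9 ± 7.33 FPKM), Casp4 (154.2 ± 8.46 FPKM) and Gsdmd (96.69 ± 3.63 FPKM). The sensors were lower, at 43.55 ± 1.05 FPKM for Nlrp3, 23.7 ± 0.201 for Aim2 and 6.93 ± 0.208 for Nlrc4. In untreated M2 WT BMDMs the order differed, with Casp1 (54.83 ± 1.97 FPKM) and Gsdmd (45.64 ± 2.2 FPKM) highest. Il1b stood at 2.81 ± 0.193 FPKM there, near Il18 (2.5 ± 0.806 FPKM) and Nlrc4 (2.36 ± 0.0608 FPKM).

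**Figure D1:**
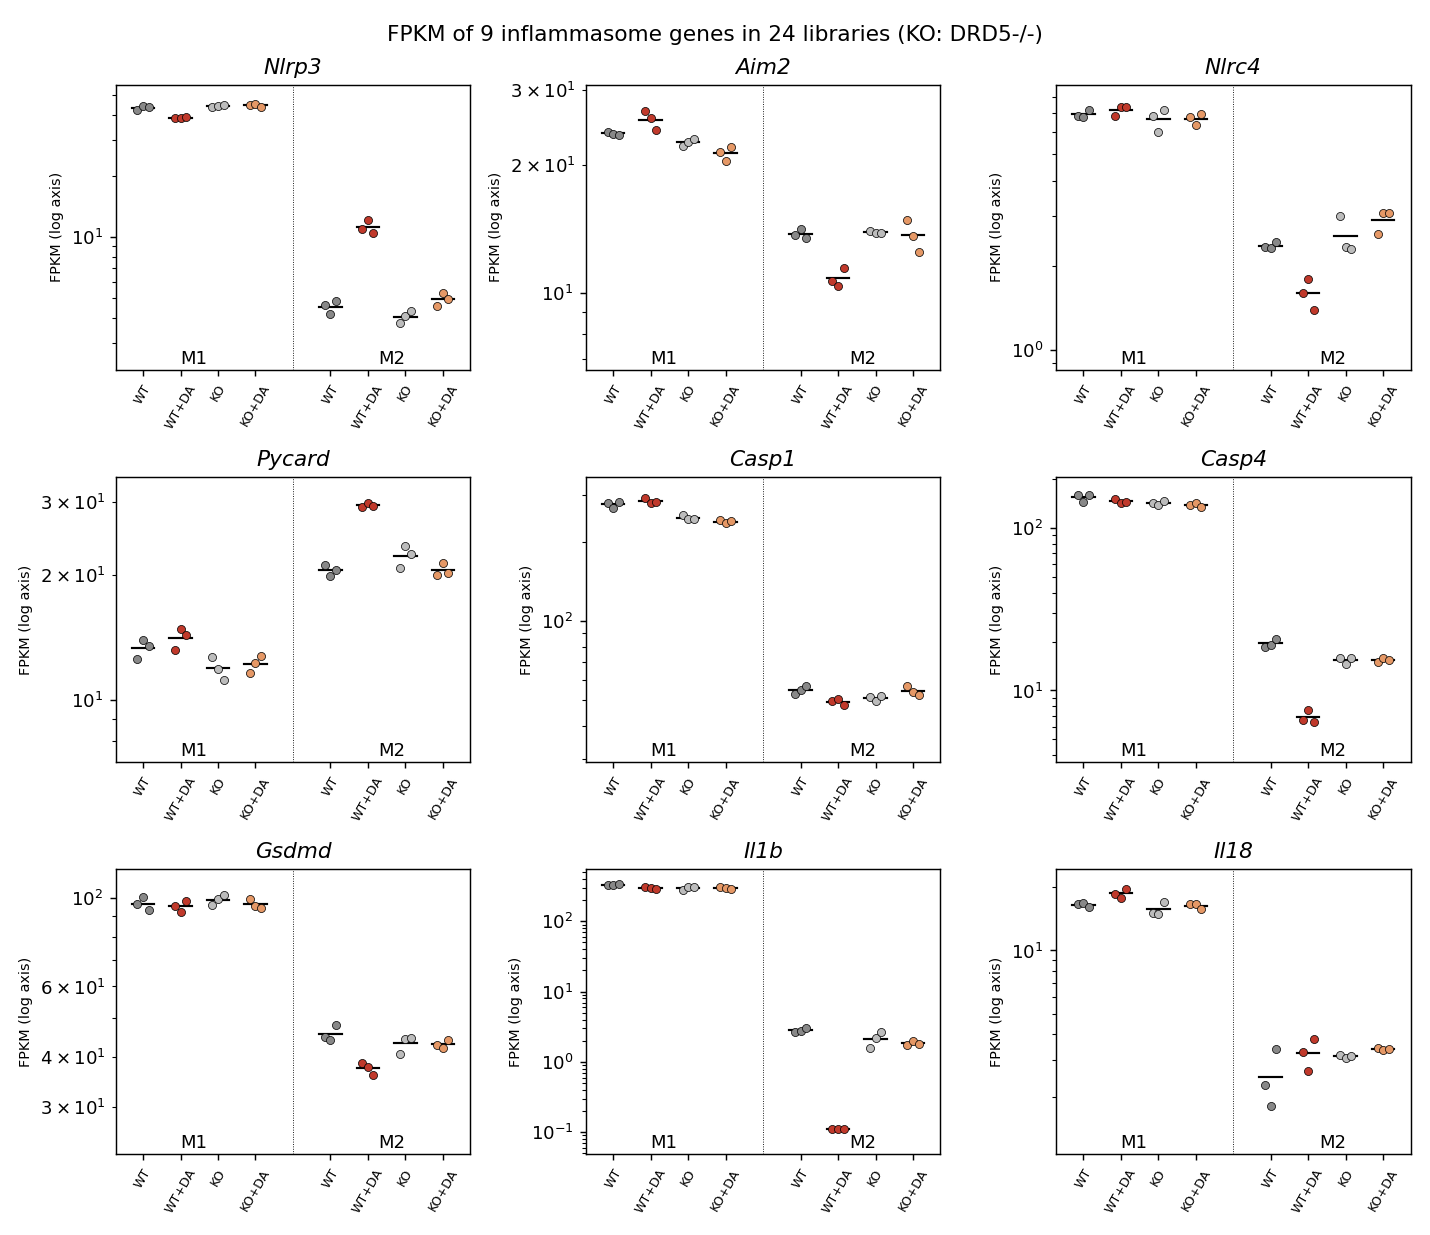
FPKM (log axis) of the 9 genes in each library, with 1 panel per gene, the 4 M1 groups left and the 4 M2 groups right of the dotted line, points for the 3 libraries and a bar for their mean. DA-treated M2 WT BMDMs stand apart from the other M2 groups for Nlrp3 (11.19 against 4.043 to 4.947 FPKM), Casp4 (6.847 against 15.32 to 19.49 FPKM) and Il1b (0.11 against 1.843 to 2.81 FPKM), while the M1 groups lie close together.

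Between the stimuli, 7 of the 9 genes were at least 2-fold higher in M1 than in M2 untreated WT BMDMs with no overlap of libraries, a rule met in that direction by 12.6% of the 11148 genes compared. Il1b was 117.1-fold, Nlrp3 9.61-fold, Casp4 7.91-fold, Il18 6.62-fold, Casp1 5.05-fold, Nlrc4 2.94-fold and Gsdmd 2.12-fold higher. Aim2 was 1.73-fold higher in M1, and Pycard was the only one of the 9 with the higher mean in M2, at 1.54-fold. The 7 genes were the same in untreated and DA-treated DRD5-/- BMDMs, where the rule was met by 12.9% and 12.4% of all genes. In DA-treated WT BMDMs all 9 passed the rule (48.6% of all genes), 8 higher in M1 (13.0% of all genes) and Pycard 2.08-fold higher in M2 (35.7% of all genes). With median-of-ratios scaling over both stimuli, 8 of the 9 passed in each of these conditions, DA-treated WT included, so the differing counts depended on the scaling. No test was made, because the M1 and M2 files list different genes and were normalized apart, so stimulus and processing cannot be told apart.

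**Figure D2:**
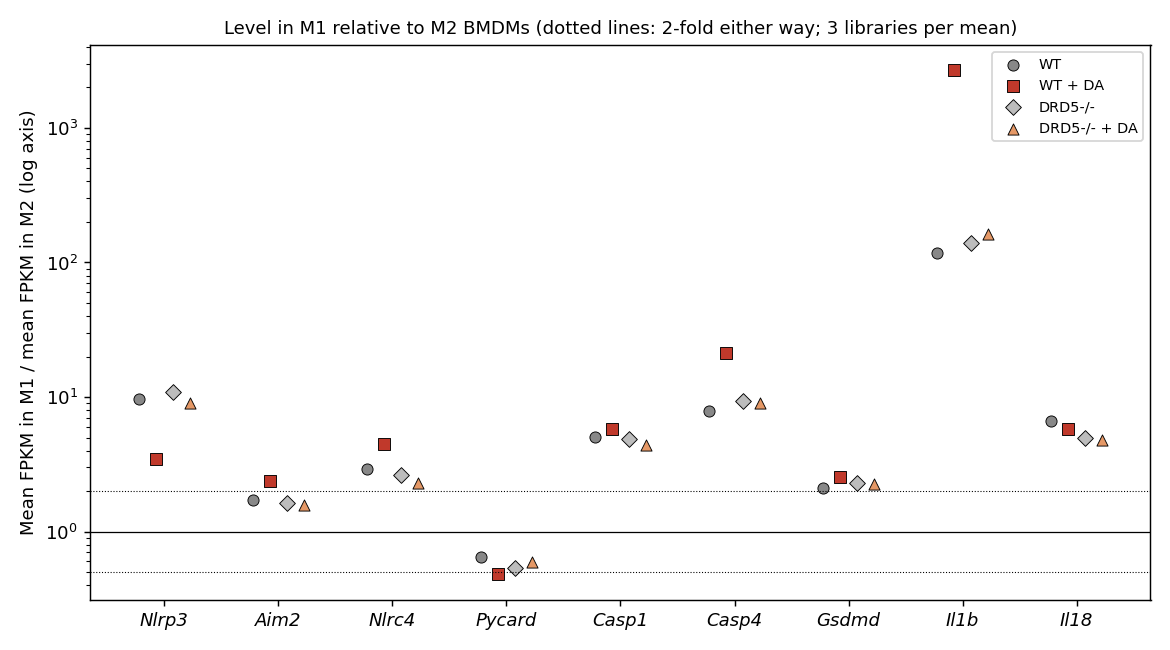
Ratio of the mean FPKM in M1 to that in M2 BMDMs (log axis) for each of the 9 genes under the 4 conditions, each mean over 3 libraries, with dotted lines at 2-fold. DA-treated WT BMDMs have the highest ratio for Il1b (2702), Casp4 (21.4), Casp1 (5.77), Nlrc4 (4.51), Gsdmd (2.54) and Aim2 (2.36). They have the lowest for Nlrp3 (3.47) and Pycard (0.480). The Il1b ratio there rests on an M2 mean of 0.11 FPKM.

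In M2, DA treatment of WT BMDMs was accompanied by higher Nlrp3 and Pycard and by lower Il1b, Casp4, Aim2 and Gsdmd. Nlrp3, the sensor of ion flux and membrane damage, rose 2.47-fold, and Pycard, the adaptor, rose 1.43-fold. Il1b was 25.5-fold and Casp4 2.85-fold lower, whereas Aim2, the sensor of cytosolic DNA, was 1.27-fold and Gsdmd, the pore protein, 1.22-fold lower. A gene was counted as changed at a Benjamini-Hochberg adjusted p under 0.001 with at least a 1.2-fold change in the limma fit over all genes, the cutoff of the study, and the 1.2-fold limit was applied to the difference on the log2(FPKM + 1) scale. 6 of the 9 genes passed (2 higher, 4 lower) in a comparison in which 46.3% of the 10735 genes tested passed (25.9% higher, 20.4% lower). The median of the 9 differences was -0.28 on the log2(FPKM + 1) scale, against 0.03 over all genes tested.

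Among the sensors, Nlrp3 stood at 4.60, 4.17 and 4.83 FPKM in the 3 untreated M2 WT libraries and at 10.97, 12.11 and 10.50 FPKM in the 3 DA-treated ones. All 3 treated libraries were above all 3 untreated ones, and the difference was 1.14 on the log2(FPKM + 1) scale (SE 0.0661, adjusted p = 1.28e-09, limma). Aim2 was at 13.64, 14.10 and 13.44 FPKM untreated and at 10.66, 10.37 and 11.46 FPKM with DA. The groups did not overlap, and Aim2 fell by 0.32 (SE 0.0526, adjusted p = 8.29e-05, limma). Nlrc4, which with NAIP proteins detects flagellin and secretion-system proteins, was at 2.33, 2.32 and 2.43 FPKM untreated and at 1.60, 1.79 and 1.39 FPKM with DA. These groups did not overlap either, but the difference of -0.38 (SE 0.0841) missed the threshold by its adjusted p of 0.00105, and it passed with either other scaling, a pseudocount of 0.1 FPKM, the compared groups alone or replicate 2 of DA-treated WT left out. Naip5, the flagellin receptor that partners Nlrc4, was at a mean of 6.86 FPKM untreated and 5.53 FPKM with DA (difference -0.26, adjusted p = 0.00252, limma).

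Pycard was at 21.15, 19.90 and 20.57 FPKM in untreated and at 29.22, 29.82 and 29.35 FPKM in DA-treated M2 WT libraries. The DA-treated group lay above every other library of the series for this gene, and the difference was 0.50 (SE 0.0419, adjusted p = 7.37e-08, limma). Casp1, the caspase of the canonical pathway, was at 53.01, 54.57 and 56.92 FPKM untreated and at 49.56, 50.61 and 48.01 FPKM with DA. The libraries did not overlap, and the difference of -0.15 (SE 0.0358, adjusted p = 0.00192, limma) did not pass.

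Casp4, the caspase of the noncanonical pathway, was at 18.63, 19.18 and 20.66 FPKM untreated and at 6.59, 7.54 and 6.41 FPKM with DA. It fell by 1.39 on the log2(FPKM + 1) scale (SE 0.0557, adjusted p = 2.37e-11, limma), while its neighbour Casp1 differed by -0.15. Gsdmd was at 44.81, 43.98 and 48.14 FPKM untreated and at 38.56, 37.72 and 36.09 FPKM with DA. It fell by 0.28 (SE 0.0422, adjusted p = 3.66e-05, limma) with no overlap between groups, and its change stayed under the 1.2-fold limit without replicate 3 of untreated WT (-0.24) or replicate 3 of DA-treated WT (-0.25).

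Il1b was at 2.67, 2.73 and 3.03 FPKM untreated and was listed at 0.11 FPKM in each of the 3 DA-treated libraries. It fell by 1.78 on the log2(FPKM + 1) scale (SE 0.101, adjusted p = 1.05e-09, limma), a scale that understates the change of so low a value. With a pseudocount of 0.1 FPKM in place of 1 FPKM the difference was -3.79. The number of reads behind 0.11 FPKM was not worked out, since the files hold no counts. Il18 was at 2.29, 1.82 and 3.39 FPKM untreated and at 3.28, 2.68 and 3.79 FPKM with DA. Its groups overlapped, and the difference of 0.30 (SE 0.126, adjusted p = 0.0467, limma) did not pass, but without replicate 3 of untreated WT it was 0.47 (adjusted p = 0.000588, limma).

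The libraries of the 2 groups did not overlap for 8 of the 9 genes, against 76% of all genes tested. Other levels moved in the same comparison. The summed level of the 8 macrophage markers was 10700 to 10900 FPKM in untreated and 8350 to 8390 FPKM in DA-treated M2 WT libraries. The lysozyme gene Lyz2 carried most of that drop (means of 6799 and 4753 FPKM), while Cd68 was at 2231 and 2205 FPKM and Itgam was higher with DA, at 132.4 and 198.1 FPKM. Of 11 neutrophil markers 9 were listed in M2, with sums of 66.6 to 67.5 FPKM untreated and 30.6 to 31.9 FPKM with DA, and Elane and Ngp were at 0 in both groups. The drop lay in Csf3r (means of 64.03 and 22.34 FPKM), while Mmp8 (1.347 and 6.657 FPKM) and S100a8 (0.67 and 1.037 FPKM) had higher means with DA. The 5 stromal markers, all listed, summed to 125 to 127 FPKM untreated and 102 to 103 FPKM with DA, with the means of Dcn and Pdgfra lower and those of the collagen genes Col1a1, Col1a2 and Col3a1 higher. The part of these levels in the results was not tested, and in bulk RNA fewer cells of a type and less RNA per cell cannot be told apart.

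In M2 DRD5-/- BMDMs none of the 9 genes passed the threshold with DA, in a comparison in which 4.02% of genes passed, and 3 of the 9 (Nlrp3, Pycard and Casp1) had an unadjusted p under 0.05 (limma), against 42.6% of all genes. Nlrp3 was at 3.76, 4.08 and 4.29 FPKM untreated and at 4.58, 5.29 and 4.97 FPKM with DA, and its difference of 0.24 (SE 0.0661, adjusted p = 0.0143, limma) was the largest of the 9. Casp4 was at 15.74, 14.58 and 15.89 FPKM untreated and at 14.89, 15.77 and 15.31 FPKM with DA, a difference of -0.01. Il1b was at 1.56, 2.22 and 2.67 FPKM untreated and at 1.77, 1.97 and 1.79 FPKM with DA, a difference of -0.13. Pycard was at 20.84, 23.49 and 22.49 FPKM untreated and at 19.99, 21.40 and 20.24 FPKM with DA, a difference of -0.11. The groups of Casp4, Il1b and Pycard overlapped. The 95% confidence intervals of the 9 differences ran from -0.35 to 0.38.

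**Figure D3:**
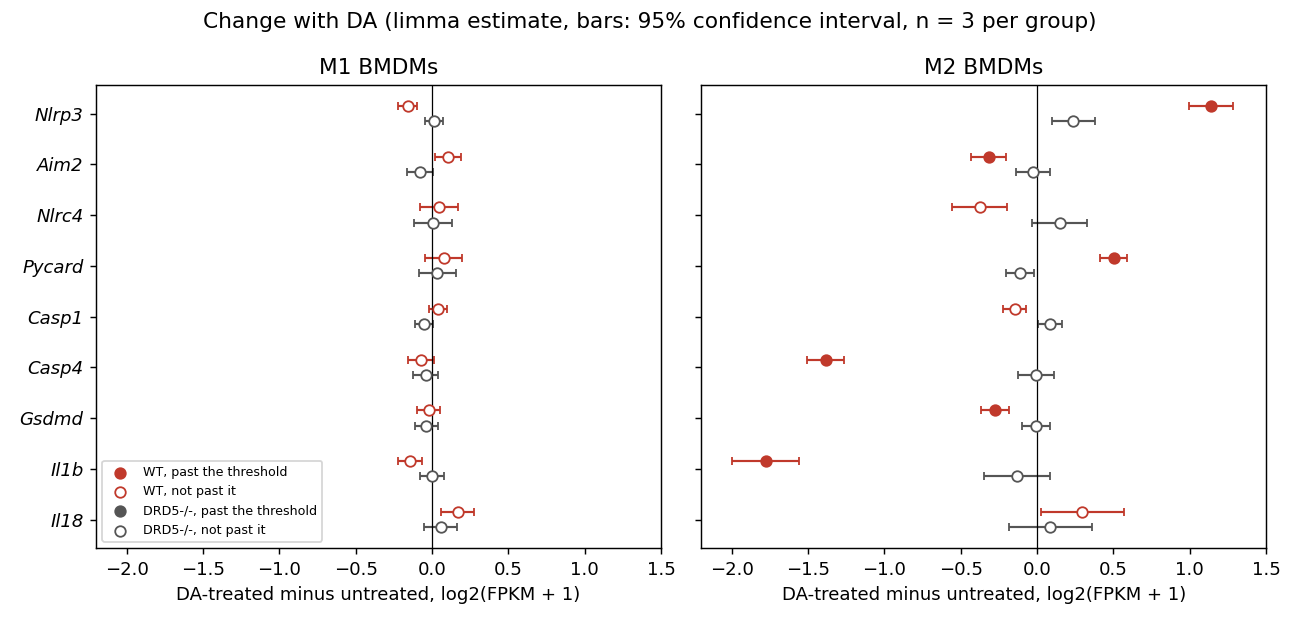
Difference between DA-treated and untreated BMDMs on the log2(FPKM + 1) scale (x axis) for each gene (y axis), in M1 (left) and M2 (right), in WT (red) and DRD5-/- (grey), with 95% confidence intervals from limma and filled points for genes past the threshold. The 6 filled points are all in M2 WT BMDMs, from -1.78 for Il1b to 1.14 for Nlrp3.

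The effect of DA in WT minus that in DRD5-/- M2 BMDMs was tested directly, and 4 of the 9 genes passed, against 43.2% of all genes. The difference between the effects was 0.90 for Nlrp3 (SE 0.0935, adjusted p = 1.06e-06), 0.61 for Pycard (SE 0.0593, adjusted p = 5.39e-07), -1.38 for Casp4 (SE 0.0787, adjusted p = 2.03e-09) and -1.65 for Il1b (SE 0.143, adjusted p = 1.74e-07), all by limma. Nlrc4 (-0.52, adjusted p = 0.00138), Aim2 (-0.29, adjusted p = 0.00323), Gsdmd (-0.27, adjusted p = 0.00106) and Casp1 (-0.23, adjusted p = 0.001) did not pass in this fit. Gsdmd passed with median-of-ratios scaling (-0.29, adjusted p = 0.000623, limma) and with quantile normalization (-0.35, adjusted p = 0.000171, limma), and Casp1 with quantile normalization (-0.30, adjusted p = 7.29e-05, limma). With a library left out, Gsdmd passed without replicate 2 of untreated WT, and Aim2 without replicate 3 of DA-treated DRD5-/-. Nlrc4 passed in 2 of the 12 fits with a library left out, over which its difference ran from -0.62 to -0.47.

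DA-treated WT and DA-treated DRD5-/- M2 BMDMs shared the DA-treated WT libraries with the comparison above. Of the 9 genes 6 passed (49.7% of all genes), with Nlrp3 and Pycard higher in WT by 1.04 and 0.50, and Il1b, Casp4, Nlrc4 and Aim2 lower at -1.36, -1.06, -0.60 and -0.31. Nlrc4 was at 2.59, 3.09 and 3.08 FPKM in DA-treated DRD5-/- libraries, each above all 3 DA-treated WT libraries (adjusted p = 1.63e-05, limma). The Aim2 call was lost without replicate 1 of DA-treated DRD5-/- and when only the compared groups were fitted. Between untreated DRD5-/- and untreated WT M2 BMDMs only Casp4 passed (5.51% of all genes), at 15.4 ± 0.717 against 19.49 ± 1.05 FPKM (SD, n = 3), a difference of -0.32 (SE 0.0557, adjusted p = 0.000762, limma). That call was lost under every other way of fitting, with adjusted p from 0.00102 to 0.00517, and whichever library of the compared groups was left out. The 5 stromal markers ran with genotype in this comparison, with summed levels of 78.6 to 80.7 FPKM in untreated DRD5-/- and 125 to 127 FPKM in untreated WT libraries and a lower mean in DRD5-/- for each of the 5. With DA the sums were 86.2 to 87.5 FPKM in DRD5-/- and 102 to 103 FPKM in WT libraries. There the means of Col1a1, Col1a2 and Col3a1 were lower in DRD5-/-. Those of Dcn (49.41 against 43.29 FPKM in WT) and Pdgfra (2.533 against 1.473 FPKM) were higher. The part of the stromal levels in the genotype results was not tested.

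The sequence before the transcription start is shown for Nlrp3 and Pycard, which rose, and for Casp4 and Il1b, which fell, in DA-treated M2 WT BMDMs, as the stretch in which promoter motifs were sought. RefSeq windows (GRCm38.p6) were found for 8 of the 9 genes, and the motifs were searched on both strands of the 250 bases before each start. They were GGG and CC around any 5 bases (κB-type, in 45.4% of 27025 promoter windows), TGACGTCA (CRE, 1.62%), its part TGACG (17.9%), TGANTCA (AP-1, 6.87%), TTCNNNGAA (GAS, 7.18%), TTC and GAA around any 4 bases (STAT6-type, 5.86%), TTTC and TTTC around any 2 bases (ISRE-type, 3.04%), TTGCNNAA (C/EBP-type, 9.55%) and TATAAA (13.0%), the last 2 added after the windows had been seen. The lines give 150 bases 5′ to 3′ in the direction of the gene, from chr11:59542536-59542685 (plus strand), chr7:127993868-127994017 (minus strand), chr9:5308678-5308827 (plus strand) and chr2:129371140-129371289 (minus strand), with matches other than TGACG in capitals.
Nlrp3: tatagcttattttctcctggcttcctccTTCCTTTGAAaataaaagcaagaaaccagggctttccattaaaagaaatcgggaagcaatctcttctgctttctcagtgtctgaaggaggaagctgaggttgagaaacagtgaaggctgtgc
Pycard: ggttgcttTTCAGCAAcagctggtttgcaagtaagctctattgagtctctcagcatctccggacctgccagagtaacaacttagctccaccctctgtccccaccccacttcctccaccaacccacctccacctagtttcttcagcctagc
Casp4: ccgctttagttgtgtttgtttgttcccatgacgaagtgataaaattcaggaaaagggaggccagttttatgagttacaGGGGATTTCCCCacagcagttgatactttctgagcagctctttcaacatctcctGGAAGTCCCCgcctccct
Il1b: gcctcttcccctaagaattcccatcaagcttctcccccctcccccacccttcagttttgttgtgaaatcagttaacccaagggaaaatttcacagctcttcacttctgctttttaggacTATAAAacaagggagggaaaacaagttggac

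The Nlrp3 line ends at the base before an internal start of the gene and holds a STAT6-type match 122 bases before it. A window at an upstream Nlrp3 start holds a κB-type match 186 bases before that start. The Pycard line holds a C/EBP-type match 142 bases before its start. The Casp4 line ends 22 bases before the start, ahead of the annotated first exon, and holds overlapping κB-type matches from 93 bases and another 39 bases before it, and TGACG at 143 bases. A further κB-type match lies 14 bases before the Casp4 start, and 6.03% of all windows held such matches at 3 or more separate places. The Il1b line holds TATAAA 31 bases before the start and no other of these motifs. These are matches of letters in a window and not measured binding sites.

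In M1, DA treatment left the 9 genes within a narrow range, and none passed the threshold in WT BMDMs, where 14.3% of the 10040 genes tested passed. The means with DA were between 0.892 and 1.13 times the untreated means, and the 95% confidence intervals of the 9 differences ran from -0.23 to 0.27 on the log2(FPKM + 1) scale. The median of the 9 differences was 0.04, against -0.07 over all genes tested. At an unadjusted p under 0.05 (limma) there were 4 of the 9 genes, Nlrp3, Aim2, Il1b and Il18, which were also the 4 whose libraries did not overlap, against 52.3% and 56.5% of all genes. Nlrp3 was at 42.37, 44.37 and 43.91 FPKM untreated and at 38.64, 38.68 and 39.22 FPKM with DA. Its difference of -0.16 (SE 0.0276, adjusted p = 0.00027, limma) met the limit on p but was under the 1.2-fold limit. Over the other fits and with a library left out, it ran from -0.18 to -0.088, with adjusted p up to 0.0215 (limma). Il1b was at 328.73, 324.35 and 334.38 FPKM untreated and at 306.14, 295.04 and 290.50 FPKM with DA, a difference of -0.15 (adjusted p = 0.00458, limma). That difference ran from -0.17 to -0.072 over the same alternatives, with adjusted p up to 0.151 (limma). Il18 was at 16.72, 16.76 and 16.13 FPKM untreated and at 18.65, 17.86 and 19.64 FPKM with DA, a difference of 0.17 (adjusted p = 0.0128, limma). The Il18 range was 0.13 to 0.24, with adjusted p up to 0.0629 (limma). Casp4, which fell in M2, was at 159.01, 144.39 and 159.09 FPKM untreated and at 151.34, 142.80 and 145.04 FPKM with DA, and these libraries overlapped. The 5 dendritic cell markers summed to 38.5 to 40.7 FPKM in untreated and 21.6 to 22.6 FPKM in DA-treated M1 WT libraries. That drop lay mostly in Ccr7 (means of 36.86 and 20.1 FPKM). The 8 macrophage markers summed to 7480 to 7600 FPKM untreated and 8170 to 8240 FPKM with DA. Lyz2 was higher with DA (4847 and 5350 FPKM) and Adgre1 lower (600.5 and 558 FPKM). The neutrophil markers summed to 131 to 144 FPKM untreated and 163 to 185 FPKM with DA. Mmp8 (13.57 and 33.69 FPKM) and S100a8 (24.99 and 41.66 FPKM) were higher, and Csf3r was lower (69.4 and 64.48 FPKM). The part of these levels in the results was not tested.

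In M1 DRD5-/- BMDMs DA was followed by no call among the 9 genes, as among all genes (0%), where 569 genes (5.67%) and none of the 9 had an unadjusted p under 0.05 (limma). Nlrp3 was at 44.05, 44.36 and 44.63 FPKM untreated and at 44.98, 45.22 and 44.05 FPKM with DA. The intervals of the 9 differences ran from -0.17 to 0.16. The effect of DA differed between the genotypes past the threshold for none of the 9 genes (8.38% of all genes), with 4 of the 9 and 40.6% of all genes at an unadjusted p under 0.05, of which Nlrp3 was at -0.17 (adjusted p = 0.00393, limma) and Aim2 at 0.18 (adjusted p = 0.0235, limma). Over the alternatives tried, Nlrp3 ran from -0.19 to -0.098 (adjusted p up to 0.0839, limma). Aim2 ran from 0.15 to 0.26 (adjusted p up to 0.0618, limma).

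Against DA-treated DRD5-/- M1 BMDMs, DA-treated WT BMDMs had no gene of the 9 past the threshold (18.5% of all genes), although 5 had an unadjusted p under 0.05 (limma; 56.6% of all genes). Casp1 was at 291.96, 279.91 and 282.97 FPKM in WT and at 241.23, 234.73 and 238.54 FPKM in DRD5-/- libraries, a difference of 0.26 (SE 0.0275, adjusted p = 2.44e-06, limma), just under the 1.2-fold limit on that scale. Aim2 was at 26.73, 25.74 and 24.15 FPKM in WT and at 21.43, 20.46 and 22.03 FPKM in DRD5-/- libraries, a difference of 0.25 (SE 0.0398, adjusted p = 0.000113, limma). Both passed under 2 other scalings of the libraries. Nlrp3 was lower in the WT libraries, at -0.20 (adjusted p = 3.12e-05, limma). Between untreated DRD5-/- and untreated WT M1 BMDMs none passed (0.936% of all genes), 4 of the 9 had an unadjusted p under 0.05 (25.5% of all genes), and Casp1 had the lowest adjusted p, at 246.8 ± 5.5 against 276.9 ± 7.33 FPKM (SD, n = 3; difference -0.17, adjusted p = 0.00166, limma). These are the M1 genotype comparisons with which the heart, lung and neutrophil transcripts ran.

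The order of the groups differed from gene to gene. For Nlrp3 the 3 M1 groups other than DA-treated WT overlapped at the top, followed without overlap by DA-treated M1 WT and DA-treated M2 WT, and the 3 remaining M2 groups overlapped with their neighbours at the bottom. DA-treated M2 WT BMDMs were the lowest of the 8 groups for Il1b, Casp4, Gsdmd, Aim2 and Nlrc4, each without overlap with the next group, and the lowest for Casp1 with overlap with untreated DRD5-/-. For Pycard this group was the highest of the 8. For Il18 the 4 M2 groups overlapped with their neighbours, between means of 2.5 and 3.40 FPKM, and DA-treated M1 WT was highest without overlap, at 18.72 ± 0.892 FPKM.

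The gene profiles nearest to each of these over the 8 group means, among 9620 genes tested in both stimuli, were measured as a root mean square distance on the log2(FPKM + 1) scale. Nlrp3, whose own spread about its mean was 1.4, was nearest to Abtb2 (0.0698), Smpdl3b (0.115) and Cpd (0.159). Casp4 (spread 1.71) was nearest to Icam1 (0.176), Il15 (0.202) and Fas (0.221). Il1b (spread 3.51) was nearest to Gbp6 (0.44), Gbp3 (0.454) and Cmpk2 (0.504), the longest distances among the 9 genes. Casp1 (spread 1.15) was nearest to Tbc1d9 (0.0793), Il18 (spread 1.08) to Otud1 (0.0787), Pycard to Cluap1 (0.0395), Gsdmd to Rab3ip (0.0404), Nlrc4 to Anxa6 (0.0668) and Aim2 to Ccnl1 (0.0443). These are descriptions, since all profiles share the same 8 groups and the separate normalization of M1 and M2, and the distances carry that contrast.

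The other genes of the pathway were taken from 6 lists by role, here for DA-treated against untreated WT BMDMs, in which 4.73% of all genes passed as higher and 9.6% as lower in M1. Of 10 genes listed under priming and activation of NLRP3, 10 were tested in each stimulus, with 1 higher and 0 lower in M1. In M2 there were 3 higher and 3 lower, where 25.9% of all genes passed as higher and 20.4% as lower. In M1 the gene was Txnip, whose product binds NLRP3 under oxidative stress, at 74.49 FPKM untreated and 144.2 FPKM with DA (difference 0.94, adjusted p = 1.14e-12, limma). In M2 Txnip (0.39), Panx1 (0.62) and Brcc3 (0.40) were higher. The ATP-gated channel genes P2rx4 (133.2 to 69.96 FPKM, -0.92) and P2rx7 (16.32 to 11.33 FPKM, -0.49) and the kinase gene Irak4 (-0.28) were lower in M2. Nek7, the kinase that bridges NLRP3 subunits, differed by 0.09 in M1 and 0.01 in M2 (adjusted p = 0.13 and 0.847, limma).

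Of 10 other sensors 7 were tested in each stimulus, with none changed in M1, where Naip5 differed by 0.21 (adjusted p = 0.00204, limma) and 4 of the 7 had an unadjusted p under 0.05, against 52.3% of all genes. In M2 Nlrp1a was higher (0.42) and Mefv, which encodes pyrin, was lower, at 1.19 FPKM untreated and 0.237 FPKM with DA (-0.82, adjusted p = 1.81e-06, limma). Of the genes for gasdermins, other caspases and membrane repair, 9 were tested in M1 and 8 in M2. Chmp4b, an ESCRT gene of membrane repair, was lower in M1 (-0.32). In M2 Ninj1, whose product ruptures the plasma membrane after pyroptosis, was at 148.2 FPKM untreated and 69.7 FPKM with DA (-1.08, adjusted p = 9.33e-12, limma), while Gsdme (0.55) and Vps4b (0.27) were higher.

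The guanylate-binding proteins and immunity-related GTPases, some of which open pathogen vacuoles and release LPS to caspase-11, were listed with their regulator Irf1. Of 13 tested in M1, 4 were higher (Gbp8 0.83, Gbp9 0.33, Gbp6 0.28 and Igtp 0.27) and 1 was lower (Gbp2b, -0.29). Of 11 tested in M2, 1 was higher (Gbp7, 0.37) and 5 were lower, among them Irgm1 (45.21 to 25.54 FPKM, -0.80), Gbp2 (7.29 to 3.87 FPKM, -0.77) and Gbp6 (1.55 to 0.75 FPKM, -0.54). The M2 median of this list was -0.29, against 0.03 over all genes. Of the 6 inhibitors of caspases and granule proteins, Serpinb9 (0.51) and Serpinb6a (0.44) were higher in M1. In M2 Serpinb9 was higher (0.74), and Serpinb1a (3.46 to 0.727 FPKM, -1.38), Birc3 (17.53 to 8.64 FPKM, -0.94), Serpinb6a (-0.46) and Birc2 (-0.33) were lower. Igtp and Birc2 were named after their values were seen.

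Of the ligands, receptors and inhibitors of IL-1 and IL-18, 10 were tested in M1 and 7 in M2. In M1 Il1rn, the IL-1 receptor antagonist, was at 1790 FPKM untreated and 1291 FPKM with DA (-0.47, adjusted p = 3.19e-09, limma), and Il36g was higher (0.37). Il1a differed by 0.26 (adjusted p = 1.49e-05, limma), just under the 1.2-fold limit on the log2(FPKM + 1) scale, and Il18bp by 0.06 (adjusted p = 0.209, limma). In M2 Il1rap, the accessory chain of the IL-1 receptor, was at 3.79 FPKM untreated and 11.67 FPKM with DA (1.40, adjusted p = 5.23e-12, limma). Il18rap (0.69) and Il18bp, the IL-18 binding protein (0.42), were also higher, and Il1r1 (-0.60) and Irak3 (-0.32) were lower. Il1rn differed by 0.24 in M2 (adjusted p = 0.000121, limma), under the 1.2-fold limit, and Il1a, at means of 0.583 FPKM untreated and 0.307 FPKM with DA, was below the filter.

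In DRD5-/- BMDMs no gene of the 6 lists passed with DA in M1. In M2, 5 genes passed, all higher (3.37% of all genes), namely Nlrp1b (0.45), Gbp2 (0.51), Gbp9 (0.43), Irgm2 (0.38) and Il18rap (0.42), of which Nlrp1b, Gbp9 and Irgm2 were named after their values were seen. Gbp2 thus fell with DA in WT and rose with DA in DRD5-/- M2 BMDMs, and the difference between the effects was -1.29 (adjusted p = 7.23e-08, limma). Untreated DRD5-/- M2 BMDMs had lower Gbp2 (4.33 against 7.29 FPKM) than untreated WT. Casp4 was also lower there, in a call lost under every other way of fitting.

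**Figure D4:**
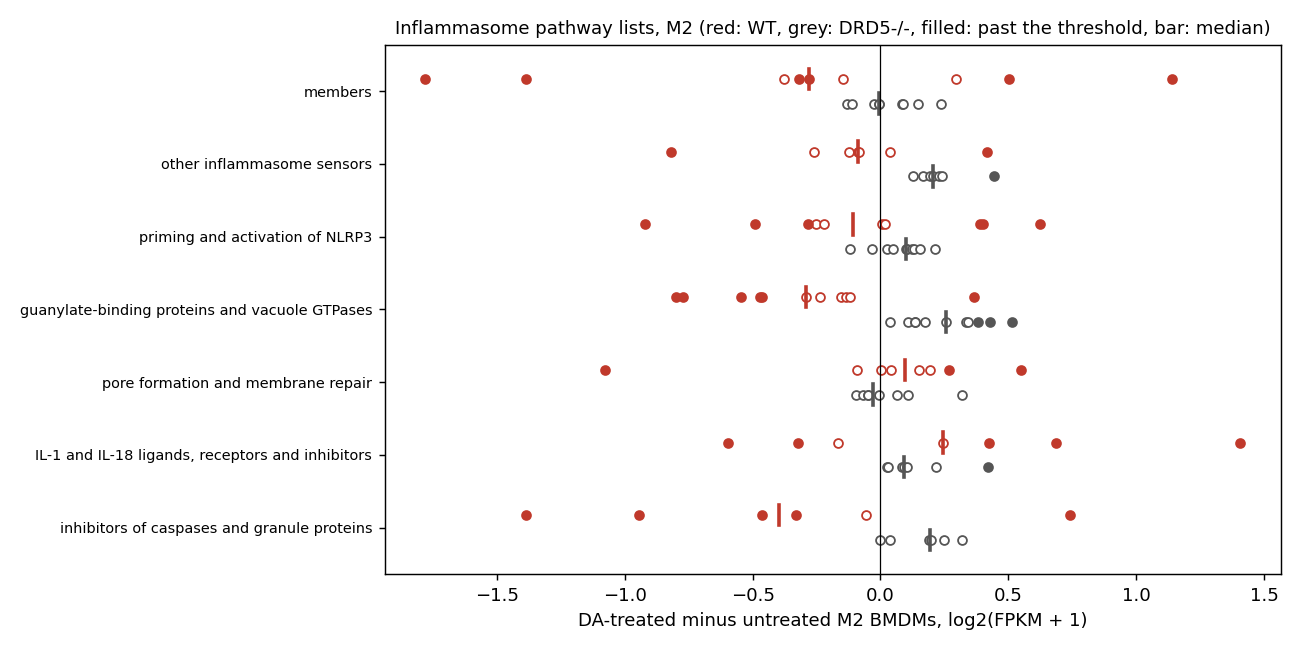
Difference between DA-treated and untreated M2 BMDMs on the log2(FPKM + 1) scale (x axis) for each tested gene of the 9 inflammasome genes (top row, named members) and of the 6 pathway lists, in WT (red) and DRD5-/- (grey), with filled points for genes past the threshold and a vertical bar for the median. The red points spread from -1.78 to 1.40, and the grey points lie between -0.13 and 0.51.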

How the data were processed

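RNA of 24 BMDM libraries, 3 per group, was sequenced by the authors on a BGISEQ-500. The study's methods name HISAT2 and GRCm38.p5, whereas the submitters' processing notes name Bowtie2 2.2.5 and GRCm38.p6, so the mapping behind the rows is not settled. The authors deposited FPKM with 2 decimals for each library, 1 file each. No read counts, gene lengths or totals were in the files. Low FPKM of some genes lay in steps, as whole reads would give, but the size of a step depends on the length of the gene, reads were not recovered, and depth is not given here. FPKM summed to 476187 to 494459 per library in M1 and to 482310 to 503799 in M2, and Pearson's r over genes within a group was 0.997 to 0.998.

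Groups were taken from the GEO labels. Labels do not say whether libraries came from separate animals or cultures, so p-values measure the spread between libraries, which may be technical. For each stimulus, genes with at least 1 FPKM in at least 3 of 12 libraries were fitted on log2(FPKM + 1) with limma 3.58.1 (R 4.3.3), a mean per group and an intensity trend, and p-values (two-sided) were adjusted by Benjamini-Hochberg over all genes tested. A gene passed at an adjusted p under 0.001 and at least 1.2-fold, the latter on the log2(FPKM + 1) scale. Fold changes given as such are ratios of mean FPKM. On simulated data a change of 0.5 on the log2 scale was recovered for 81 of 100 genes in M1 and 83 of 100 in M2 in the comparison of DA in WT, and a change of 1 for 97 and 98, with 0 false calls. Only these genes, of 10040 in M1 and 10735 in M2, were changed, in a single group and with independent noise. In the real comparisons 14.3% and 46.3% of genes passed, so the simulated rates need not hold there. Same-numbered libraries did not deviate together (mean residual correlation -0.0208 for M1, -0.016 for M2), and the numbers were not used to pair libraries.

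The 9 genes and the pathway lists were chosen with earlier results of these data known. Text names all 9 genes, Drd5, Il1a, Il1rn, Il18bp, Nek7, Txnip and Naip5, per list and stimulus the 3 largest rises and falls past the threshold with DA in WT, and per gene the nearest profiles. Other scalings (median-of-ratios, quantile), a pseudocount of 0.1, no filter, no trend, a replicate block, fits of the compared groups alone, other thresholds and leaving out each library were tried. Promoter sequences were from RefSeq (GRCm38.p6), with 1 of the 9 genes (Gsdmd) not matched. One gene of the pathway lists is not reported here.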

Additional observations from a re-analysis of the deposited data

Results flagged for a closer look

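For 4 of the 9 genes the effect of DA differed between WT and DRD5-/- M2 BMDMs in the test of the difference itself (limma on log2(FPKM + 1), 43.2% of all genes past the same threshold). The effect in WT minus that in DRD5-/- was 0.90 for Nlrp3, 0.61 for Pycard, -1.38 for Casp4 and -1.65 for Il1b. In DA-treated WT, 3 of 3 libraries were above the untreated ones for Nlrp3 and Pycard and below them for Casp4 and Il1b.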

How the results depend on the processing

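Of 1260 single values recomputed for the 9 genes, 1182 kept their direction and their side of the threshold, 17 lost and 22 gained a call, and 39 changed sign, none of them called in either setting. In M2 BMDMs DA in WT gave 3 calls at a 2-fold limit in place of 6 and 5 to 7 with a library left out. DA-treated WT against DA-treated DRD5-/- gave 3 at 2-fold in M2, and in M1 2 calls with median-of-ratios or quantile scaling and 0 to 1 with a library left out, in place of 0. The M2 difference between the effects of DA gave 7 calls at an adjusted p of 0.05 and 2 at 2-fold in place of 4. The single M2 call between untreated genotypes (Casp4) became 0 with median-of-ratios or quantile scaling, a pseudocount of 0.1, no filter, no trend, the replicate block, the compared groups alone, a 2-fold limit or any library left out (0 to 0), and 2 at an adjusted p of 0.05. The replicate block changed no other count of calls by over 1.5 times. At a 4-fold limit 5 of the 9 genes differed between M1 and M2 in DA-treated WT, in place of 9. With median-of-ratios scaling over both stimuli 8 differed in DA-treated WT, in place of 9, and 8 in each other condition, in place of 7. The causes were not tested.

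Values that changed sign were all small. With median-of-ratios scaling in M1 they were, with DA in WT, Casp4 at 0.0012 and Gsdmd at 0.053, between the DA-treated genotypes Gsdmd at 0.050 and Il1b at 0.054, and for the difference between effects Casp4 at 0.045. With quantile normalization in M1 they were Gsdmd at 0.0099 with DA in WT, Il1b at 0.0090 with DA in DRD5-/-, Gsdmd at 0.0019 between the DA-treated genotypes and Casp4 at 0.014 for the difference between effects, and in M2 Gsdmd at 0.017 with DA in DRD5-/-. With a library left out, the M1 range with DA in WT was -0.046 to 0.0073 for Gsdmd. With DA in DRD5-/- the M1 ranges were -0.045 to 0.024 for Il1b, -0.057 to 0.053 for Nlrc4 and -0.0072 to 0.078 for Pycard. Between the DA-treated genotypes they were -0.039 to 0.0045 for Gsdmd and -0.035 to 0.014 for Il1b, and between untreated genotypes -0.098 to 0.013 for Nlrc4. For the difference between effects they were -0.0094 to 0.044 for Gsdmd, -0.0090 to 0.10 for Nlrc4 and -0.0025 to 0.086 for Pycard. In M2 they were -0.084 to 0.033 for Aim2, -0.043 to 0.015 for Casp4 and -0.047 to 0.019 for Gsdmd with DA in DRD5-/-, -0.15 to 0.042 for Il18 between the DA-treated genotypes and -0.019 to 0.12 for Nlrc4 between untreated genotypes.

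With no counts in the files, no counting error is given for single low values such as Il1b at 0.11 FPKM.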

Other observations

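The Y-linked genes Ddx3y and Kdm5d reached at most 0.01 and 0.02 FPKM in any of the 24 libraries, whereas Eif2s3y was between 0.13 and 0.49 FPKM and Uty between 0.09 and 0.42 FPKM. The study's methods describe male mice.

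Arg1, an M2 marker encoding arginase, was at 591.8 ± 7.34 FPKM (SD, n = 3) in DA-treated M2 WT BMDMs and at 28.94 ± 0.795 FPKM in untreated ones, in the same libraries in which Nlrp3 and Pycard were higher and Casp4 and Il1b lower. In M2 DRD5-/- BMDMs it was at 28.49 ± 0.734 FPKM untreated and at 40.49 ± 2.26 FPKM with DA, with no overlap of libraries. Arg1 was named after its values were seen. Of the other M2 markers examined, Chil3 (means of 44.76 and 61.16 FPKM) and Mrc1 (305.7 and 537.3 FPKM) were higher with DA in M2 WT BMDMs. Retnla was lower with DA there, at 103.8 and 29.33 FPKM. Untreated M1 WT BMDMs had Arg1 at a mean of 64.39 FPKM, above untreated M2 WT.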
